A study of Homo sapiens with 8 samples.

Results

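The BTG and TOB family of antiproliferative genes and their deadenylase partners CNOT7 and CNOT8 were followed in KYSE850 cells, a human line established from esophageal squamous carcinoma, after KHSRP was silenced. The members were BTG1, BTG2, BTG3, TOB1, TOB2, CNOT7 and CNOT8, 7 of the 12123 genes that could be tested. Every probe whose transcript accession mapped to one of these symbols was taken, which gave 8 probes, 1 for each gene except CNOT7 with 2. BTG2 was the starting point because it was already known to be higher with KHSRP siRNA on these arrays, so its values are a description and were not tested. The other 6 genes were chosen for their relation to BTG2, and the question was whether they changed with it.

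The control cells had been transfected with a control siRNA and the knockdown cells with siRNA against KHSRP, an RNA-binding protein of mRNA decay and miRNA maturation, and messenger RNA was labelled in 1 colour on 4 Agilent arrays per group. siRNAs are short duplexes that direct the cleavage of a matching mRNA. The labels name neither the siRNA on each array nor whether the 4 arrays of a group came from separate cultures, so the p-values measure only the spread between these arrays, which may be technical. All 8 arrays held the same cell line, with no other genotype or drug given.

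BTG and TOB proteins slow cell division and promote mRNA decay. They share an amino-terminal domain that binds CNOT7 and CNOT8, a pair of closely related enzymes that shorten the poly(A) tail of mRNAs within the CCR4-NOT complex. TOB1 and TOB2 also bind the poly(A)-binding protein PABPC1, and BTG2 is a known target gene of p53.

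The sequences below show a regulator that the study linked to BTG2 and the start regions of BTG1 and BTG2. The study listed BTG2 among predicted targets of miR-21, a miRNA encoded within the VMP1 locus. It also reported higher BTG2 mRNA by qPCR in KHSRP-knockdown cells. The mature strand of miR-21 (RefSeq, GRCh38.p14, chr17:59841273-59841294, plus strand) is given with the seed, bases 2 to 8, in capitals. For BTG1 (chr12:92145847-92145946, minus strand) and BTG2 (chr1:203305419-203305518, plus strand), the 100 bases just before the annotated start of the gene are given from the RefSeq promoter table of the same build, 5′ to 3′ along the gene. Capitals mark each CCAAT box and each TATAAA box, searched on both strands, so a CCAAT on the opposite strand reads ATTGG.
hsa-miR-21-5p: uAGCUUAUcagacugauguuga
BTG1: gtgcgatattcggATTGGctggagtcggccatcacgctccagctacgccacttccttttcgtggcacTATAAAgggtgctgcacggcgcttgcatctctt
BTG2: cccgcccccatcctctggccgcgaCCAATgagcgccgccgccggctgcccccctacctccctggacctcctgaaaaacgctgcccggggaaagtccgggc

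The CCAAT box began 87 bases before the start of BTG1, on the opposite strand, and 76 bases before that of BTG2. BTG1 also held a TATAAA box, which began 33 bases before its start and which the BTG2 window lacked. Of 35116 annotated start windows of this length, 18.1% held a CCAAT and 4.99% a TATAAA. Neither motif was found in the windows of BTG3, TOB1 (2 windows), TOB2 or CNOT8 (3 windows). CNOT7 had no entry in the promoter table and was not searched. These matches describe the letters only, since the arrays did not measure binding at these sites.

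Each array had between 45.1% and 49.4% of its 42405 probes well above background, as the scanner software defines it, and no spot was saturated. Levels are given on a log2 scale relative to the 75th percentile of the array, which is level 0. KHSRP itself, at its brighter probe A_23_P16157, had a mean level of 6.08 ± 0.24 in control siRNA arrays and 2.71 ± 0.19 in KHSRP siRNA arrays (SD, n = 4 each), so 9.66% of the control signal was left (limma adjusted p = 5.95e-05). The squamous markers KRT5, KRT14, KRT6A, TP63, SFN and CDH1 were well above background on all 8 arrays and the endothelial marker PECAM1 on 0 of 8, while the fibroblast marker COL1A1 was above background on all 8 at a low level and the brightest probe of the blood marker PTPRC on 4 of 8.

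The arrays also stood apart in a way that crossed the siRNA groups. The first principal component, 52.1% of the variance over 17229 probes, separated control siRNA replicates 2 and 4 and KHSRP siRNA replicates 2 and 3 from the other 4 arrays, and the second, 23.4%, separated the siRNA groups. KRT5, the basal keratin, showed the split plainly, with levels of 5.84, 4.30, 5.84 and 3.11 in control siRNA replicates 1 to 4 and 5.92, 4.46, 2.92 and 5.98 in KHSRP siRNA replicates 1 to 4. KRT14, KRT6A, TP63 and SFN were lower on the same 4 arrays. COL1A1 went the other way and was higher on each of those 4 arrays than on any of the other 4. CDH1 followed the split among the KHSRP siRNA arrays but not fully among the controls, with -0.148 in control siRNA replicate 4 and -0.156 in replicate 1. In bulk RNA, fewer cells with a transcript and less of it per cell cannot be told apart. Each array of one siRNA group had a counterpart in the other when numbered as in the deposited series matrix, in which KHSRP siRNA replicates 3 and 4 of the scanner files change places. Changes are therefore given without a block and with that number as a block, called the paired fit below, and what separates the 2 sets of arrays was not tested.

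Without the block, 0 of the 6 relatives of BTG2 were called, that is, had an adjusted p under 0.05. Of all 12123 tested genes, 6.19% were called in that fit (2.14% higher and 4.05% lower). Of the 18761 tested probes, 5.54% were called (1.92% higher and 3.62% lower). With only 6 genes, a count of 0 cannot be told apart from such a share. At an unadjusted p under 0.05 the count in limma was also 0, beside 3677 of the 18761 probes. The methods' t-test called 0 after adjustment, beside 1081 probes. The 6 log2 fold changes ran from -0.41 for TOB1 to 0.34 for TOB2, 3 above 0 and 3 below, with a median of 0.00 against 0.01 over all tested genes. In the paired fit 2 of the 6 were called, TOB1 lower and TOB2 higher. That share, 33.3%, stood beside 30.1% of all probes (14.8% higher and 15.3% lower) and 33.0% of all genes (15.9% higher and 17.0% lower) called in the same fit, so it was close to the share of genes in general. CNOT7 was counted by its brighter probe. Its other probe, A_32_P141262, was also called lower in the paired fit (limma adjusted p = 0.0311), so the count depends on the probe taken.

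**Figure D1:**
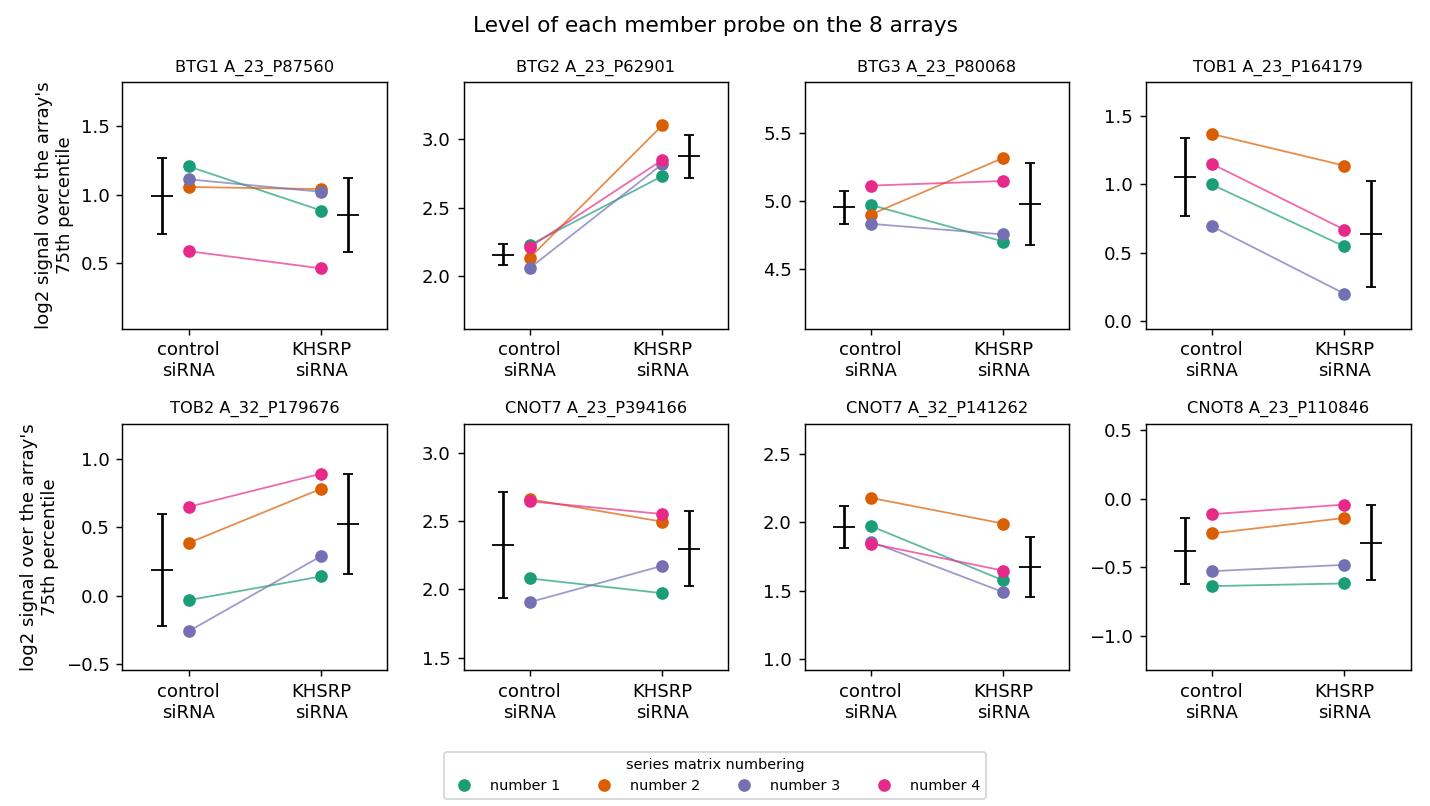
Level of each of the 8 member probes (log2 signal relative to the 75th percentile of the array) on the 4 control siRNA and 4 KHSRP siRNA arrays. Each point is an array, coloured lines join arrays of the same series matrix number, black bars give the group mean ± SD, and every panel spans 1.8 log2 units. The BTG2 points of the groups do not overlap, while in the CNOT8 panel the lines stay apart and nearly level.

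BTG2, an early-response member of the family, had levels of 2.23, 2.13, 2.06 and 2.21 in control siRNA replicates 1 to 4 and 2.73, 3.10, 2.85 and 2.82 in KHSRP siRNA replicates 1 to 4. The lowest KHSRP siRNA array was above the highest control, and the controls were tight. Of all tested probes, 14.8% had groups that did not overlap (6.09% with KHSRP siRNA higher), a figure from which nothing is read here because BTG2 was chosen on this contrast. The mean was 2.16 ± 0.08 with control siRNA and 2.87 ± 0.16 with KHSRP siRNA (SD, n = 4 each). The difference of 0.72 (SE 0.12, 95% interval 0.45 to 0.98) corresponds to a 1.64-fold higher signal. It was 0.74 on the first slide and 0.70 on the second, each slide holding 2 arrays of each group. Within the pairs of arrays it ranged from 0.50 to 0.97.

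BTG1, the closest relative of BTG2, had levels of 1.21, 1.06, 1.11 and 0.59 in control siRNA replicates 1 to 4 and 0.88, 1.04, 0.46 and 1.02 in KHSRP siRNA replicates 1 to 4. Control replicate 4 and KHSRP siRNA replicate 3, which share a series matrix number, were the low arrays, and the groups overlapped. The difference was -0.14 (SE 0.19, 95% interval -0.56 to 0.28, limma adjusted p = 0.780). All 4 pairs were lower, by between -0.32 and -0.02, and the paired fit did not call it (adjusted p = 0.217). A change of the same sign in all 4 pairs was seen at 50.7% of tested probes, made up of 25.8% higher and 25.0% lower.

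BTG3, a family member more distant from BTG2, had levels of 4.97, 4.90, 4.83 and 5.11 with control siRNA and 4.70, 5.31, 5.15 and 4.76 with KHSRP siRNA, in replicate order. The KHSRP siRNA arrays lay on both sides of the controls. The difference of 0.03 (SE 0.16, 95% interval -0.34 to 0.40) had an adjusted p of 0.966 in limma. It was below 0 in 2 pairs and above 0 in the other 2. Its sign turned with the scaling, to -0.049 when arrays were scaled to their median.

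TOB1, which brings CNOT7 and CNOT8 to mRNAs through PABPC1, had levels of 0.999, 1.37, 0.69 and 1.15 in control siRNA replicates 1 to 4 and 0.55, 1.14, 0.67 and 0.20 in KHSRP siRNA replicates 1 to 4. The ranges overlapped, yet each KHSRP siRNA array was below its paired control. The means were 1.05 ± 0.28 and 0.64 ± 0.39 (SD, n = 4 each), a difference of -0.41 (SE 0.22, 95% interval -0.92 to 0.09), which limma did not call without a block (adjusted p = 0.361). The 4 pairs were lower by -0.45, -0.23, -0.49 and -0.48, close to each other beside the spread between arrays of one group. In the paired fit the interval narrowed to -0.60 to -0.23 and TOB1 was called lower (adjusted p = 0.0122), 1.33-fold. Leaving out pair 1, 3 or 4 took that call away, with adjusted p from 0.0542 to 0.0570 and a difference between -0.40 and -0.39, while the fit without pair 2 kept it (-0.48, adjusted p = 0.0184). Of all tested genes, 77.9% had a smaller change in size than TOB1.

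TOB2, the other TOB protein, had levels of -0.03, 0.39, -0.26 and 0.65 with control siRNA and 0.14, 0.78, 0.89 and 0.29 with KHSRP siRNA, in replicate order. The groups overlapped, with replicates 2 and 4 high among the controls and replicates 2 and 3 high among the KHSRP siRNA arrays, but each pair was higher with KHSRP siRNA, by 0.17 to 0.55. The difference was 0.34 (SE 0.25, 95% interval -0.22 to 0.90, limma adjusted p = 0.531). In the paired fit it was called higher, 1.27-fold (95% interval on the log2 scale 0.13 to 0.55, adjusted p = 0.0321). That call was lost in limma when any 1 pair was left out (adjusted p from 0.0575 to 0.106) and when arrays were scaled to their median (0.27, adjusted p = 0.0590).

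**Figure D2:**
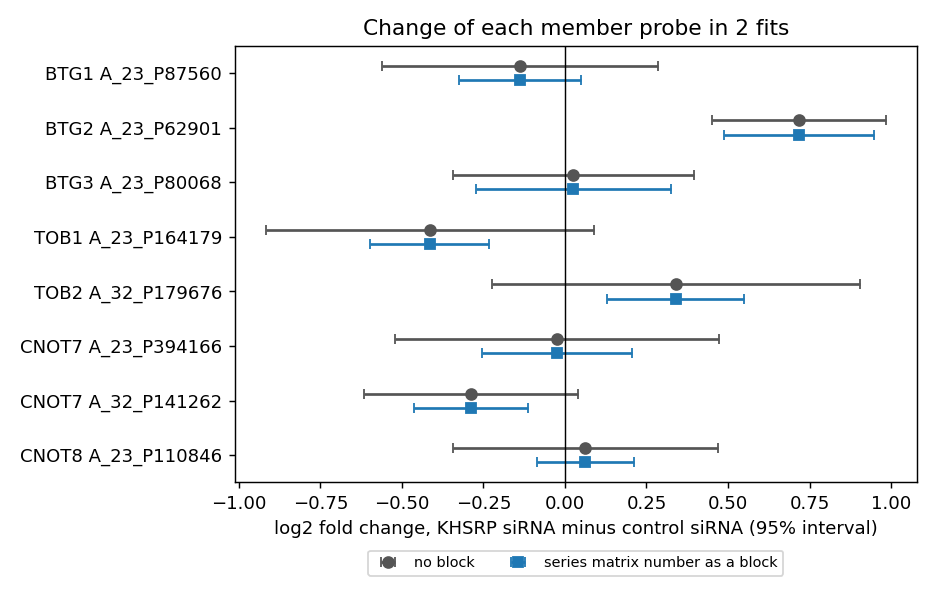
Log2 fold change (KHSRP siRNA minus control siRNA) of each member probe, with its 95% interval, in the fit with no block (grey circles) and in the fit with the series matrix number as a block (blue squares). The interval of BTG2 lies above 0 in both and is shown as a description, and those of TOB1, TOB2 and CNOT7 probe A_32_P141262 clear 0 in the paired fit but not without the block.

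CNOT7, a catalytic subunit of CCR4-NOT, was measured by a pair of probes assigned to different transcript accessions, and the values of each are given. The one with the higher mean level, A_23_P394166, had levels of 2.08, 2.66, 1.91 and 2.64 in control siRNA replicates 1 to 4 and 1.97, 2.50, 2.55 and 2.17 in KHSRP siRNA replicates 1 to 4. Replicates 2 and 4 of the controls and 2 and 3 of the KHSRP siRNA arrays were again the high ones, and the groups overlapped almost fully. Its difference was -0.02 (SE 0.22, 95% interval -0.52 to 0.47, limma adjusted p = 0.976), and in the paired fit the adjusted p was 0.862. The other probe, A_32_P141262, had levels of 1.97, 2.18, 1.86 and 1.85 with control siRNA and 1.58, 1.99, 1.65 and 1.49 with KHSRP siRNA. Here KHSRP siRNA replicate 2 alone reached the range of the controls. The difference of -0.29 (SE 0.14, 95% interval -0.62 to 0.04) was not called without a block in limma (adjusted p = 0.328) but was in the paired fit (adjusted p = 0.0311), 1.22-fold lower. All 4 pairs were lower at this probe, by between -0.40 and -0.19, and leaving out any 1 pair took the call away (adjusted p from 0.0524 to 0.115).

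CNOT8, the paralogue of CNOT7 with the same catalytic role, had levels of -0.64, -0.25, -0.53 and -0.11 in control siRNA replicates 1 to 4 and -0.62, -0.14, -0.04 and -0.48 in KHSRP siRNA replicates 1 to 4. The high arrays were those high for TOB2 and for the first CNOT7 probe, and the groups overlapped. The difference was 0.06 (SE 0.18, 95% interval -0.34 to 0.47, limma adjusted p = 0.915) without the block. In the paired fit the interval was -0.09 to 0.21 (adjusted p = 0.471), so a change of more than 0.21 in either direction lay outside it.

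**Figure D3:**
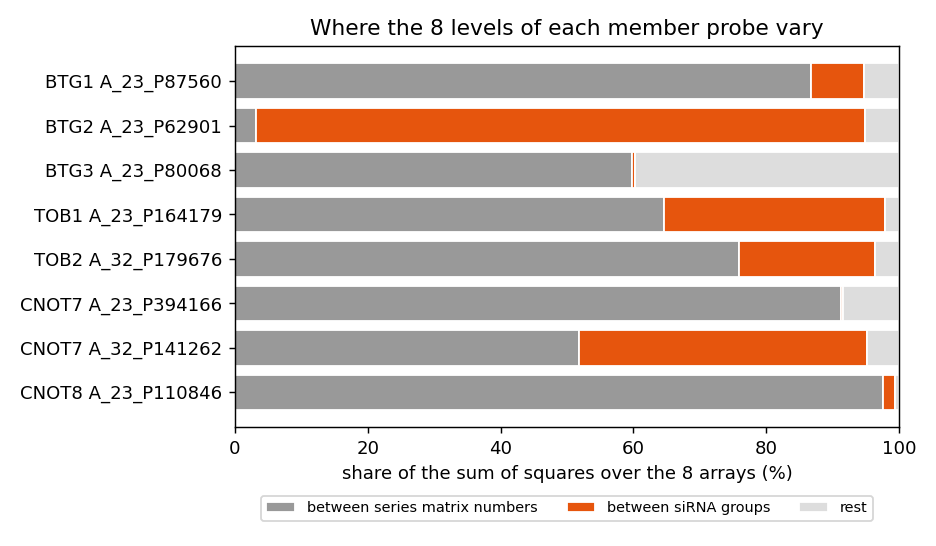
Share of the sum of squares of each member probe over the 8 arrays (%) that lay between series matrix numbers (dark grey), between siRNA groups (orange) and in neither (light grey). BTG2 is almost all orange at 91.6%, and CNOT8 almost all dark grey at 97.5%.

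The members differed in where their variation lay. For BTG2, 91.6% of the sum of squares over the 8 arrays was between the siRNA groups and 3.19% between the series matrix numbers, again as a description of a gene chosen on that contrast. For CNOT8 the order was turned, with 97.5% between numbers, a share that 4.13% of all tested probes passed. The share between numbers was 91.3% for CNOT7 probe A_23_P394166, 86.8% for BTG1, 75.9% for TOB2, 64.6% for TOB1, 59.7% for BTG3 and 51.8% for CNOT7 probe A_32_P141262, against a median of 64.5% over all tested probes. BTG3 was the member with the most left over, 39.8% lying in neither. The share between siRNA groups was 43.5% for CNOT7 probe A_32_P141262, 33.2% for TOB1 and 20.4% for TOB2, against a median of 14.7% over all probes. It was below that median for BTG1 (7.92%), CNOT8 (1.90%), BTG3 (0.416%) and CNOT7 probe A_23_P394166 (0.181%).

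Likeness to BTG2 was ranked by Pearson's r of the levels over the 8 arrays among 11448 genes well above background on all of them, as a description. The 5 highest were ZNF485 (r = 0.997), TSPO (0.991), PLA2G12A (0.991), DHRS11 (0.990) and SUPT3H (0.989). No relative was near these, TOB2 at 0.58 being the highest, followed by BTG3 at 0.31, CNOT8 at 0.27, CNOT7 at 0.10, BTG1 at -0.24 and TOB1 at -0.38. BTG2 was chosen on the siRNA contrast, which held 91.6% of its sum of squares, so this r largely restates that change. Genes without a group change could not reach a high r by this measure, and nothing further is read from the ranks. When each array was first set against the mean of its own siRNA group, the highest included FBXO11 (r = 0.969), ZNF485 (0.967), OR7E12P (0.957) and GSS (0.948). By that measure r with BTG2 was 0.86 for BTG3, 0.71 for TOB1, 0.57 for TOB2, 0.50 for CNOT7, 0.48 for CNOT8 and 0.09 for BTG1. All of these correlations rest on the same 8 arrays, of which KHSRP siRNA replicate 2 was the highest for BTG2 and BTG3 and the highest of its group for TOB1.

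**Figure D4:**
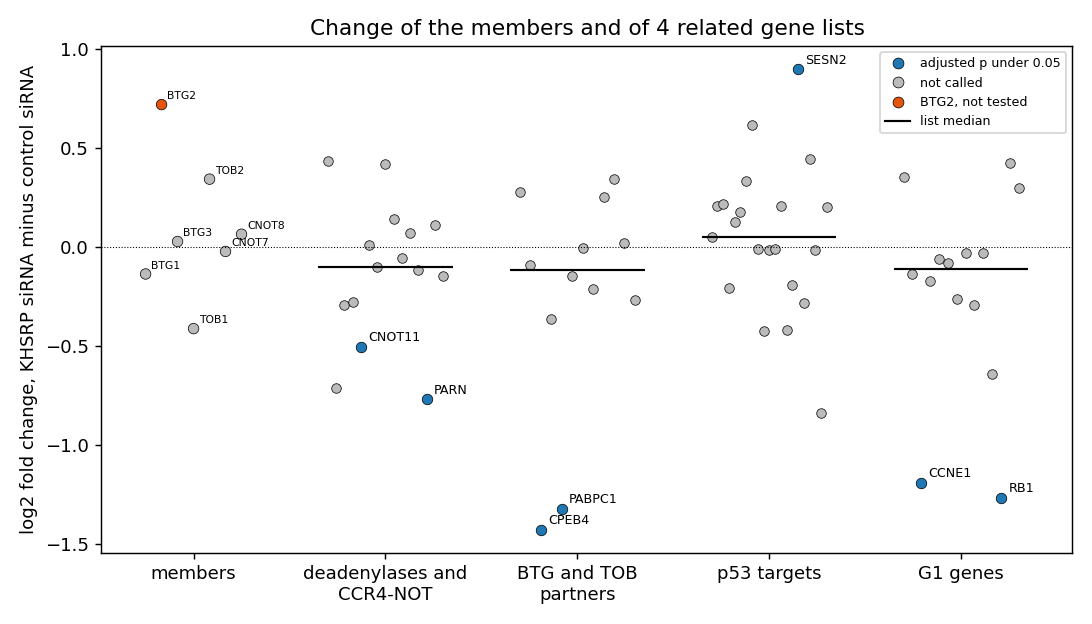
Log2 fold change (KHSRP siRNA minus control siRNA) of the 7 members and of the tested genes of 4 related lists, 1 probe per gene. Blue points had an adjusted p under 0.05 in the fit without a block, the orange point is BTG2, which was not tested, and horizontal bars are list medians. The called genes are named, and PABPC1 and CPEB4 lie lowest.

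Among other deadenylases and CCR4-NOT subunits, 15 of 18 genes were tested and 2 were called, both lower, beside 6.19% of all 12123 genes (2.14% higher and 4.05% lower). PARN, a deadenylase outside CCR4-NOT, fell from a mean of 1.94 to 1.17, a difference of -0.77 (SE 0.11, limma adjusted p = 0.00586), and was called in each setting that left out 1 array. CNOT11, a non-catalytic subunit, fell by 0.51 (SE 0.10, limma adjusted p = 0.0221). Its call stood in 1 of the 8 settings that left out an array, that without KHSRP siRNA replicate 2. The list had 6 genes above 0 and 9 below, with a median of -0.11 against 0.01 over all genes, which became 0.030 without KHSRP siRNA replicate 4. With pairing, 6 were called (40.0%, beside 33.0% of all genes), CNOT4 and ANGEL1 higher and CNOT10, CNOT11, PARN and ANGEL2 lower.

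Proteins known to bind BTG or TOB proteins, or to be joined by them on mRNAs, were covered by 12 tested genes of 15. PABPC1, the poly(A)-binding protein through which TOB1 and TOB2 act, had levels of 7.02, 6.98, 7.04 and 6.70 with control siRNA and 5.50, 5.63, 5.76 and 5.56 with KHSRP siRNA. All 4 KHSRP siRNA arrays were well under every control, and PABPC1 fell by 1.32 on the log2 scale (SE 0.12, limma adjusted p = 0.00108), 2.50-fold. PABPC1 has near-identical copies that its probe may also read. CPEB4, of the cytoplasmic polyadenylation element binding proteins, some of which bind TOB1, had levels of 0.45, 0.62, 0.78 and 0.64 with control siRNA and -1.11, -1.01, -0.54 and -0.56 with KHSRP siRNA. It fell by 1.43 (SE 0.16, limma adjusted p = 0.00283), 2.69-fold. Both genes were called in each of the 21 other settings that gave them a value. The other 10 genes of the list were not called without a block, and the list median was -0.12. The 2 calls were 16.7% of the list, beside 6.19% of all genes. With pairing, 5 were called (41.7%, beside 33.0% of all genes), SMAD1 and SMAD4 higher and PABPC1, CPEB4 and HOXB9 lower.

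BTG2 is a p53 target, and 21 of 24 other p53 target genes were tested. SESN2, a stress-response gene, was the 1 called without a block, with levels of -0.42, -0.37, -0.46 and -0.57 in control siRNA replicates 1 to 4 and 0.32, 0.52, 0.44 and 0.49 in KHSRP siRNA replicates 1 to 4. It rose by 0.90 (SE 0.10, limma adjusted p = 0.00293), 1.86-fold. The remaining 20 ran from -0.84 for TP53INP1 (limma adjusted p = 0.374) to 0.61 for FDXR (limma adjusted p = 0.142). CDKN1A had a log2 fold change of 0.12 (limma adjusted p = 0.885) and GADD45A of -0.01 (limma adjusted p = 0.979). The list median was 0.05, with 11 genes above 0 and 10 below, and its sign turned with median scaling (-0.023) and when control siRNA replicate 3 (-0.026) or KHSRP siRNA replicate 2 (-0.047) was left out. The 1 call was 4.76% of the list, beside 6.19% of all genes. With pairing, 5 were called (23.8%, beside 33.0% of all genes), SESN2, FDXR and TNFRSF10B higher and MDM2 and TP53INP1 lower.

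Of G1 cell cycle genes, 14 of 15 were tested and 2 were called, both lower. CCNE1, the cyclin that drives entry into S phase, had levels of 4.29, 4.21, 4.27 and 4.31 with control siRNA and 2.98, 3.05, 3.19 and 3.09 with KHSRP siRNA. The groups lay far apart beside the spread within them, and CCNE1 fell by 1.19 (SE 0.10, limma adjusted p = 7.18e-04), 2.29-fold. RB1, which holds cells in G1, had levels of 1.83, 2.24, 1.47 and 2.48 with control siRNA and 0.45, 0.81, 1.34 and 0.36 with KHSRP siRNA. It fell by 1.27 (SE 0.28, limma adjusted p = 0.0364), a call that stood in 2 of the 8 settings without 1 array, namely those leaving out the third array of either group. The list median was -0.11, with 3 genes above 0 and 11 below. Of the 14, 14.3% were called without a block, beside 6.19% of all genes. With pairing 8 were called (57.1%), 3 higher and 5 lower, beside 33.0% of all genes. CCND1, RBL1 and RBL2 were the higher ones, and CCNE1, CDK6, RB1, E2F1 and E2F3 the lower.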

How the data were processed

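The deposited scanner files hold linear fluorescence intensity per spot. Per the file headers the authors used Agilent Feature Extraction 11.5.1.1 (12.6 in the submitters' processing notes), which background-subtracted and detrended the processed signal without scaling between arrays. The authors also deposited a series matrix of log2 values, used as an alternative. Control and outlier spots were dropped, and log2 signals were averaged per probe and set against the array's 75th percentile. Probes entered the test if well above background (0.5 of their spots or more) on all 4 arrays of either group. Of 42405 probes, 27237 (64.2%) were joined to a symbol through RefSeq accessions (GRCh38.p14, names only). The tested probe with the highest mean level stood for a gene.

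Groups followed the labels, and no array was left out. The comparison used lmFit and eBayes of limma 3.58.1 (R 4.3.3), two-sided and without a block, and p-values were adjusted by Benjamini-Hochberg across the 18761 probes tested. The fit was tested on simulated data. Other steps used Python 3.11.15. For pairing, deviations from group means were correlated between same-numbered arrays over 17229 probes. With scanner file numbers r was 0.57, 0.48, -0.69 and -0.67 for numbers 1 to 4. With series matrix numbers, whose columns for KHSRP siRNA 3 and 4 match each other's scanner files, r was 0.57, 0.48, 0.86 and 0.86, so that numbering was taken to pair the arrays. This pairing comes from the data and the matrix, not from a label that names shared cultures. Because the numbering was picked by r in these same arrays, the paired intervals may be too narrow and the paired p-values too small. The text names every member probe, KHSRP, the called genes of each list and the 5 genes most like BTG2 by each measure, of which 1 is not reported here. A few other list genes were named after their values were seen. The members and lists were chosen with earlier results of these data known. Alternatives covered the scaling, the background (normexp with offset 50 on the median spot brightness), the dim-probe filter, use of the series matrix, slide and number blocks, array weights, an intensity trend, Student's t-test, averaging a gene's probes, and leaving out each array. Precision is limited by 4 arrays per group.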

Additional observations from a re-analysis of the deposited data

How the results depend on the processing

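With 4 arrays per group, the 95% intervals given limit how small a change could be seen. In all, 22 alternatives to the fit without a block were run, counting the paired fit itself among them, and 8 of the paired fit. The latter and normexp were chosen after seeing the data. The sign of BTG2, BTG1, TOB1, TOB2 and CNOT7 probe A_32_P141262 held in each alternative that gave a value. BTG2 ranged from 0.61 to 0.79. BTG3 turned to -0.049 with median scaling and -0.083 with normexp, in both fits, and CNOT8 to -0.012 with median scaling in both. Median scaling shifts all probes of an array by the same amount, so TOB1 also moved, from -0.41 to -0.49. The cause of the turn with normexp was not tested.

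Leaving out 1 array, the log2 fold change ran from -0.27 (without control siRNA replicate 4) to -0.0084 (without KHSRP siRNA replicate 3) for BTG1, from -0.58 to -0.27 (without KHSRP siRNA replicate 4) for TOB1, from 0.19 (without control siRNA replicate 3) to 0.49 for TOB2, from -0.086 to 0.12 for BTG3, from -0.16 to 0.087 for CNOT7 probe A_23_P394166 and from -0.031 to 0.16 for CNOT8. Leaving out 1 pair in the paired fit, it ran from -0.10 to 0.12 for BTG3, from -0.12 to 0.022 for CNOT7 probe A_23_P394166, from -0.48 to -0.39 for TOB1, from 0.27 to 0.40 for TOB2 and from -0.32 to -0.25 for CNOT7 probe A_32_P141262, and the members called ran from 0 to 1. In the paired fit TOB2 was 0.27 with median scaling and 0.20 with normexp, past the threshold in neither, so 1 member was called under each.

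The block by series matrix numbers called TOB1 (-0.41), TOB2 (0.34) and CNOT7 probe A_32_P141262 (-0.29), so 2 members, with 5644 probes in all, 6 deadenylase, 5 partner, 5 p53 target and 8 G1 genes. The block by scanner file numbers, which differ only in the places of KHSRP siRNA replicates 3 and 4, called 156 probes, 0 members, 0 deadenylase, 0 p53 target and 1 G1 gene. The labels do not settle which numbering of those replicates is right, and the member calls depend on it. Probes called were 570 with median scaling, 319 with no filter on dim probes and 491 to 741 without 1 array, against 1039. Deadenylase genes called were 1 with median scaling or no filter, 4 with array weights and 1 to 2 without 1 array. The p53 targets called were 2 when a gene's probes were averaged, and G1 genes called were 1 with no filter, the slide block or Student's t-test and 1 to 2 without 1 array.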

Other observations

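BTG4, the relative of BTG2 known from oocytes, was not a member, and its probe was well above background on 0 of 8 arrays. RRM2B, a p53 target, had a pair of tested probes. The one standing for the gene had a log2 fold change of -0.42 (limma adjusted p = 0.434), and the other, A_23_P20225, had -1.16 (SE 0.20, limma adjusted p = 0.0134), with 3 of 4 KHSRP siRNA arrays well above background there. The difference between the probes was not tested, and RRM2B was named after its values were seen.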
